A study of Homo sapiens with 6 samples.

Results

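The proteasome genes examined here are the protein-coding genes whose symbol is PSMA, PSMB, PSMC, PSMD, PSME, PSMF or PSMG followed by a number. GENCODE release 44 holds 48 such genes. Of these, 47 are among the 63677 gene identifiers of the count table, and 45 had summed counts above 10 across all samples and were tested. The identifier that the annotation gives for PSMB3, a structural subunit of the core, is not listed in the table, so no value is given for it. PSMA8, a core subunit known from male germ cells, had 1 count in total over all 6 samples and PSMB11, the catalytic subunit known from the thymus, had 2, so both were too low to test. Of the 45 tested genes, 5 are known to be inducible by interferon (PSMB8, PSMB9, PSMB10, PSME1 and PSME2), and 40 form the rest.

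Poly(A) RNA was sequenced from UWB1.289 cells, a human ovarian carcinoma line whose genotype the labels give as WT and which is known to lack functional BRCA1. Cells from 3 dishes were exposed for 24 h to 4 µM Olaparib, an inhibitor of the PARP enzymes of DNA repair, and cells from 3 other dishes to the solvent DMSO. The design text of the series gives the dose as 10 µM, whereas the sample labels and the treatment protocol give 4 µM. All samples come from 1 cell line, and the p-values measure the spread between dishes of this line.

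The proteasome is the protease that degrades proteins tagged with ubiquitin. Its barrel-shaped core has outer rings of alpha subunits and inner rings of beta subunits, and the inner rings carry the proteolytic sites. A regulatory particle with ATPase and non-ATPase subunits caps the core, unfolds substrates and feeds them in. Interferon exchanges the catalytic subunits PSMB6, PSMB7 and PSMB5 for PSMB9, PSMB10 and PSMB8 and raises the alternative cap of PSME1 and PSME2, which favours the production of peptides for antigen presentation. The transcription factor NFE2L1 raises proteasome genes when proteasome activity is low, through antioxidant response elements in their promoters.

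Promoter sequences are shown because interferon and NFE2L1 are known to act on genes of this kind through short promoter motifs. The 250 bases before the start site were read from RefSeq (GRCh38.p14) for the 42 members that its promoter table holds, with 51 promoters between them. Both strands were searched for GAAA, any 2 bases and GAAA again (the core of the interferon-stimulated response element), TTCNNNGAA (the gamma-activated site) and TGACNNNGC (the antioxidant response element). A match describes the letters only and is not read as a bound site. The first motif lay in 5 of the 51 promoters (9.8%) and in 3.02% of all 35116 promoters of the table. Its match in PSMB10 started 21 bases before the start site, that in PSME2 28 bases and that in PSMG4, a core assembly chaperone, 33 bases. The stretches below run 5′ to 3′ along each gene's strand, and the capitals mark the motif.
PSMB10, chr16:67936852-67936881, minus strand: gggtaaaggcGAAAGCGAAAgcaggaagta
PSME2, chr14:24146619-24146648, minus strand: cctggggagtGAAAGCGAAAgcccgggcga
PSMG4, chr6:3258904-3258933, plus strand: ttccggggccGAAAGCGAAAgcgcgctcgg

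PSMB10 and PSME2 are interferon-inducible members, and PSMG4 is not counted among them. The same 10 letters stood in these 3 promoters. The remaining matches had other letters. They lay 240 bases before the start site in PSMA4 and 68 bases before it in PSMB4, which are not counted as inducible either. The gamma-activated site lay in 7 member promoters (13.7%) and in 6.57% of all promoters, and the antioxidant response element in 13 member promoters (25.5%) and in 10.9% of all promoters. Among the inducible members, PSMB8 held the former, and PSMB9, PSME1 and PSME2 held the latter, in PSMB9 on the opposite strand. The PSMB8 match lay in a 250-base window inside the gene (chr6:32844048-32844297). Its other window (chr6:32844680-32844929) held none of the motifs. Annotated exons of either strand covered all 250 bases of both PSMB8 windows and of the PSME2 window. They covered 44 bases in PSMB9, 31 in PSME1, 14 in PSMB10 and 50 in PSMG4.
PSMB8, gamma-activated site, chr6:32844093-32844122, minus strand: aactgtccttTTCTCGGAAaaggcaggggg
PSMB9, antioxidant response element, chr6:32854034-32854063, plus strand: gggcggggctGCCTCGTCActtgtctcggg
PSME1, antioxidant response element, chr14:24136098-24136127, plus strand: atggcagggcTGACCCCGCctcctccatcc

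PSMD3, a scaffold subunit of the regulatory particle with a fold change among the highest of the members, held both a gamma-activated site and an antioxidant response element. Its log2 fold change was 0.0854 and did not pass (adjusted p = 0.157 in edgeR's test, described below). PSMD13 and PSMC3, with similar log2 fold changes of 0.0850 and 0.0826, held none of the motifs. The whole 250-base window of PSMD3 contains no annotated exon base and is shown with both matches in capitals.
PSMD3, chr17:39980557-39980806, plus strand: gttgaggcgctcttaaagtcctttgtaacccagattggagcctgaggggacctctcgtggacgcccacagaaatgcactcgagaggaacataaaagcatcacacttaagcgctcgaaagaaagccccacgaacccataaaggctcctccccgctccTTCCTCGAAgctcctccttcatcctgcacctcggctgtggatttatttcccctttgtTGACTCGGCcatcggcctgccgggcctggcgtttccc

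Library totals lay between 35360458 and 39640775 counts, and the 45 members took 0.818% to 0.832% of each library. Of 8 markers of ovarian carcinoma epithelium, 7 passed the count filter, led by the keratins, and WT1 had 8 counts in total. Of 6 markers of endothelium and fibroblasts, CDH5 was present at 10.3 RPKM (the level scale used below, which divides counts by transcript length and library size) and PECAM1 had 0 counts in total. The summed level of these 6 was 11.4 to 11.6 RPKM with Olaparib and 11.8 to 12.5 RPKM with DMSO. One marker of each of these lists passed edgeR's test after adjustment. PAX8, an epithelial transcription factor, was higher with Olaparib by 0.10 on the log2 scale (adjusted p = 0.0399 in edgeR's test, 0.0250 in DESeq2 and 0.0349 in limma voom). The edgeR call was lost with any sample left out other than the first Olaparib sample (adjusted p up to 0.206). KRT18, higher by 0.08, passed in DESeq2 (adjusted p = 0.0322) and limma voom (0.00822) and not in edgeR's test (0.0977). KRT8, higher by 0.07, passed in limma voom (adjusted p = 0.0455) and not in DESeq2 (0.154). VWF, an endothelial gene at 0.204 RPKM with Olaparib and 0.127 RPKM with DMSO, was higher by 0.68 (adjusted p = 0.0106 in edgeR's test and 0.0710 in DESeq2). Their part in the values of the members was not tested. Fewer cells with a transcript and less of it per cell cannot be told apart in such bulk RNA.

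The levels of the proteasome genes spanned a wide range, from 2.11 RPKM for PSMB9 to 580 RPKM for PSMD2, with a median of 65.5 RPKM over the 45 genes. In the alpha ring, which gates the core, PSMA7 was highest at 556 RPKM and PSMA2 lowest at 8.08 RPKM. Among the structural beta subunits, PSMB4 reached 355 RPKM and PSMB2 65.0 RPKM. The constitutive catalytic subunits lay close together, with PSMB6 at 223, PSMB7 at 173 and PSMB5 at 156 RPKM. In the regulatory particle, PSMD2, a scaffold subunit that binds ubiquitin-like domains, stood at 5.65 times the median of the 17 subunits, and the next, the deubiquitinase PSMD14, reached 246 RPKM. The base ATPases ran from 14.9 RPKM for PSMC1 to 179 RPKM for PSMC3.

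The interferon-inducible members fell into separate level ranges. PSME1 and PSME2, at 140 and 152 RPKM, were near the constitutive core subunits. The median of the 10 of these for which no shared same-strand exon was found was 164 RPKM. PSMB8 stood at 22.5 RPKM, and PSMB10 and PSMB9 at 2.56 and 2.11 RPKM, the lowest of all 45 tested members. In DMSO the level of PSMB5 was 6.90 times that of PSMB8, the level of PSMB7 67.4 times that of PSMB10, and the level of PSMB6 119 times that of PSMB9.

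**Figure D1:**
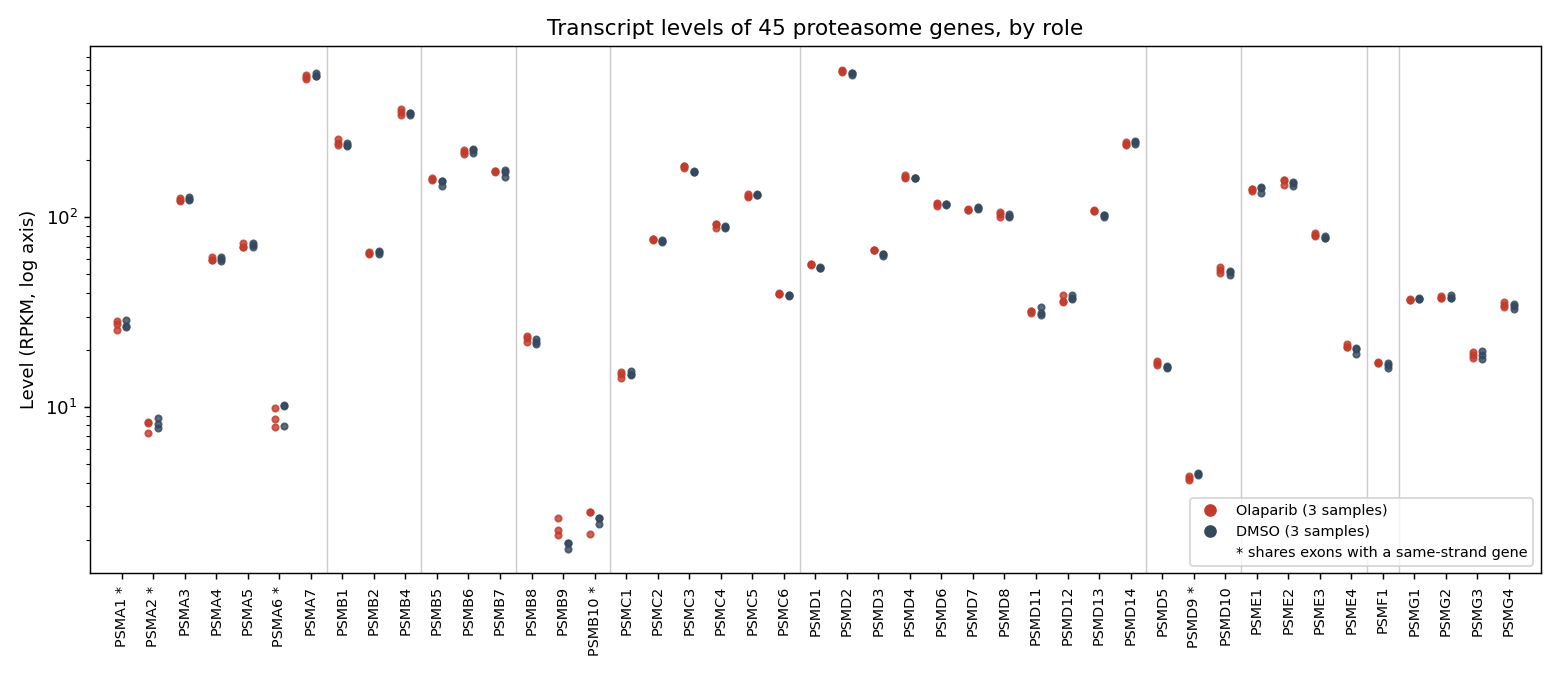
Level of each of the 45 tested proteasome genes in the 6 samples (RPKM, log axis), with genes grouped by role between the vertical lines, 3 Olaparib samples in red and 3 DMSO samples in dark blue. The samples of a gene lie close together, while genes run from PSMB9 at 2.11 to PSMD2 at 580, and asterisks mark the 5 genes that share exons with another gene on the same strand.

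Some low levels come from genes whose exons another gene shares. For 5 members, more than 10% of the bases of the canonical transcript lay on the same strand as an exon of an unnamed protein-coding read-through locus that the table lists separately. The shared portion was 100% for PSMA2, 81.4% for PSMA6, 67% for PSMA1, 56.1% for PSMB10 and 28.8% for PSMD9. Only loci held by GENCODE 44, 81.9% of the listed identifiers, could be searched, so sharing with other counted loci is not known. Their median level was 8.08 RPKM, and that of the other 40 members was 77.8 RPKM. The read-through loci themselves held between 0 and 91 counts in total, the highest at PSMB10, and how reads in shared exons were assigned is not given in the sources used here. The levels of these 5 genes are therefore uncertain, and the part of exon sharing in them was not tested. PSMC1 shared 83.2% of its canonical bases with NRDE2 on the opposite strand, and the strand setting of the counting is also not given. Pseudogenes took few counts, since 8 of 44 listed had more than 10 in total and the highest, PSME2P2, held 369, or 1.36% of the total of PSME2. PSMA6P1 held 53, or 2.52% of the total of PSMA6.

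**Figure D2:**
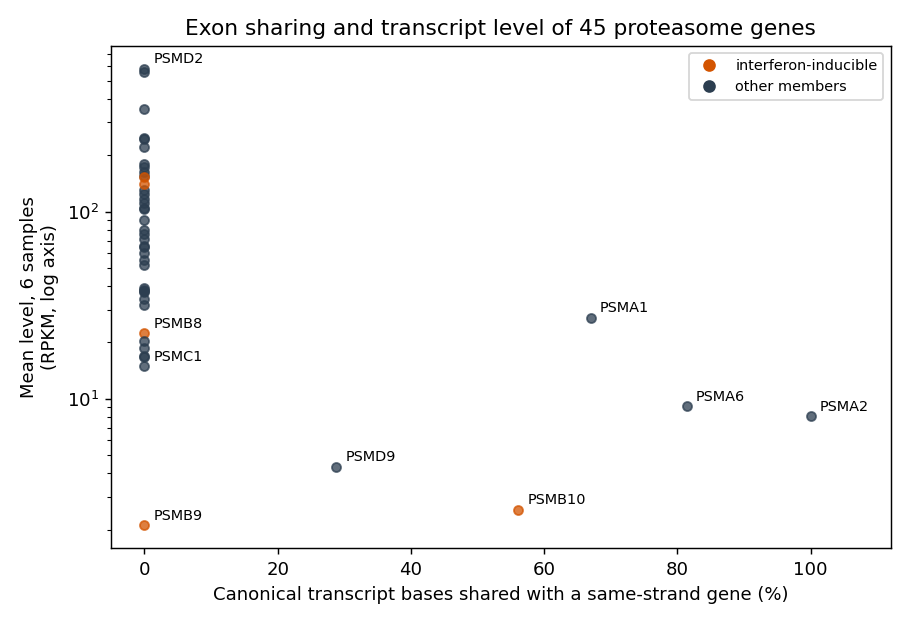
Share of canonical transcript bases that lie on the same strand as an exon of another gene (percent, horizontal axis) against the mean level over 6 samples (RPKM, log axis) for the 45 tested genes, with the interferon-inducible members in orange. The 5 genes with shared exons run from 2.56 to 27.2, and PSMB9, for which no shared exon was found, lies lower at 2.11.

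No proteasome gene passed the test for a change with Olaparib. Among 21729 genes tested with edgeR's quasi-likelihood method, with p-values adjusted by Benjamini-Hochberg over all of them, 0 members passed an adjusted p of 0.05. In all, 730 genes (3.36%) passed, 2.15% of the genes upward and 1.21% downward. DESeq2 and limma voom also gave 0 members. At an unadjusted p under 0.05, 5 members were higher (PSMC3, PSMD13, PSMD3, PSMB9 and PSME4) and 0 lower, or 11.1% of the members. Of all genes tested 14.8% had such a p, 7.83% upward and 6.97% downward. The log2 fold changes, Olaparib over DMSO, ran from -0.10 for PSMA6 to 0.31 for PSMB9, with a median of 0.02 beside a median of -0.0042 over all genes. They were above 0 in 25 members and below 0 in 20.

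The intervals of most members were narrow. The median standard error of the log2 fold change was 0.033 over the members and 0.092 over all genes tested. For 42 of the 45 members (93.3%) the 95% interval lay within a 1.2-fold change in either direction, and this held for 46.7% of all genes. The other 3 were PSMA6, PSMB9 and PSMB10, which had the lowest totals of the 45, at 2105, 481 and 561 counts. All genes with more than 10 counts in total enter the share over all genes. The comparison is thus not matched for count, and the part of depth in it was not tested. The 3 Olaparib samples lay entirely above the 3 DMSO samples in 12 members and entirely below in 2. Over all genes 10.0% were separated upward and 9.29% downward.

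**Figure D3:**
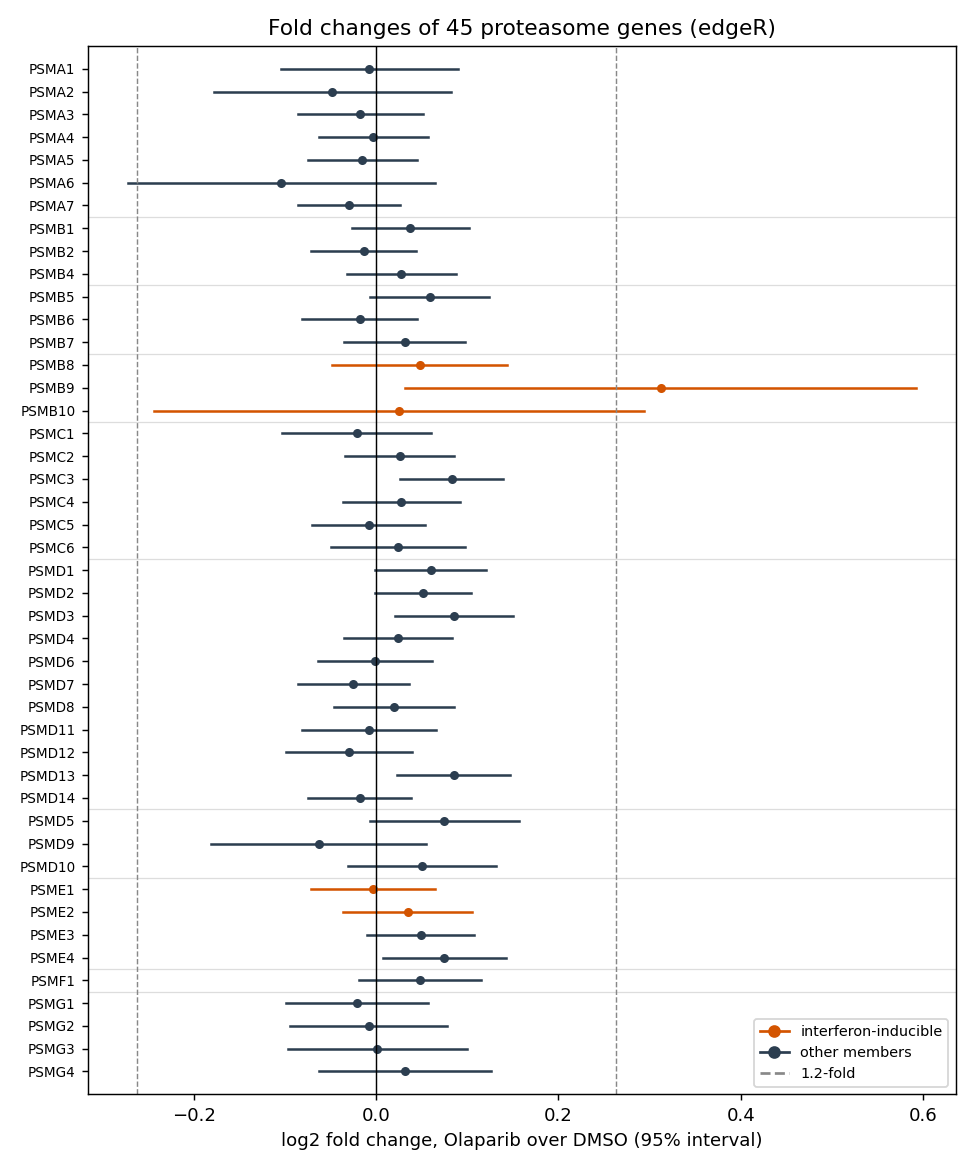
Log2 fold change of Olaparib over DMSO for the 45 tested proteasome genes, ordered by role, as points with 95% intervals from edgeR, the interferon-inducible members in orange and dashed lines at a 1.2-fold change. The intervals of 42 genes stay between the dashed lines, and those of PSMB9, PSMB10 and PSMA6 cross one of them.

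PSMB9 had the highest log2 fold change of the members and stood on few counts. Its normalized counts, scaled to the mean library size, were 86.0, 81.0 and 99.4 in the Olaparib samples and 68.0, 73.5 and 73.0 in the DMSO samples. The groups did not overlap, with means of 88.8 ± 9.50 and 71.5 ± 3.08 (SD, n = 3 each). The fold change was 1.24, with a 95% interval from 1.02 to 1.51, a log2 standard error of 0.14 and an adjusted p of 0.260 in edgeR's test, so the difference did not pass. Only 481 counts over the 6 samples stand behind these values. PSMB9 lies on chromosome 6, from 32844136 to 32859851 on the plus strand (GRCh38).

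Leukocytes carry the immunoproteasome at rest, and their markers were at low levels here. The summed level of the 10 leukocyte markers was 1.77 to 1.98 RPKM with Olaparib and 1.44 to 1.73 RPKM with DMSO. This sum was thus higher with Olaparib, and of the 7 markers tested 5 had a log2 fold change above 0 and 2 below. None of the 10 passed edgeR's test after adjustment. CD14, the marker with the highest level and 261 counts in total, had 0.983 RPKM with Olaparib and 0.737 RPKM with DMSO, with separate groups, an unadjusted p of 0.0302 and an adjusted p of 0.260 in edgeR's test. CD3E had 6 counts in total, CD4 and MS4A1 had 1 each and PTPRC had 403. Their part in the value of PSMB9 was not tested.

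PSMB8 and PSMB10, the partners of PSMB9 in the immunoproteasome core, gave smaller differences. PSMB8 had 923, 971 and 992 normalized counts with Olaparib and 904, 931 and 957 with DMSO. These ranges overlapped, and the log2 fold change was 0.05 ± 0.05 (SE), with an adjusted p of 0.712 in edgeR's test. PSMB10 had 77.9, 103 and 102 normalized counts with Olaparib and 95.1, 88.3 and 94.8 with DMSO. The first Olaparib sample was below and the other two were above every DMSO sample. The log2 fold change of PSMB10 was 0.02 ± 0.13 (SE), and it was -0.05 once the counts of its read-through locus were added.

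The subunits of the interferon-inducible cap differed little between groups. PSME1 had 4956, 5106 and 5099 normalized counts with Olaparib and 5192, 4867 and 5142 with DMSO. The ratio of the means was 0.997, with a 95% interval from 0.951 to 1.05. PSME2 had 4393, 4666 and 4663 normalized counts with Olaparib and 4486, 4349 and 4564 with DMSO. The first Olaparib sample of PSME2 lay within the DMSO range and the other two above it, and the fold change was 1.02, from 0.975 to 1.08.

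As a group, the 5 interferon-inducible members had a median log2 fold change of 0.03 and the other 40 members one of 0.01. Of the 5, 4 were above 0 and 1 below, and of the 40, 21 were above 0 and 19 below. Over all genes tested, 48.6% were above 0. Neither group had a member past the adjusted threshold. An unadjusted p under 0.05 in edgeR's test was held by 1 of the 5 (20%) and 4 of the 40 (10%). The share over all genes tested was 14.8%.

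Ratios within a sample set each inducible catalytic subunit against the one it replaces, and PSME2 against its partner PSME1 in the cap, so that library size cancels. The ratio of PSMB9 to PSMB6, per kilobase, was 0.0104, 0.00946 and 0.0118 with Olaparib and 0.00819, 0.00845 and 0.00851 with DMSO. The groups did not overlap, and the means differed by 0.33 on the log2 scale. A two-sided exact permutation test of 3 against 3 samples cannot go below p = 0.1, which is the value it gave here, and after adjustment over the 4 ratios the exact test gave 0.4. The ratio of PSMB8 to PSMB5 was 0.144 ± 0.0033 with Olaparib and 0.145 ± 0.0026 with DMSO (SD, n = 3 each; exact permutation p = 0.5). For PSMB10 to PSMB7 the ratio was 0.0147 ± 0.0021 and 0.0148 ± 0.0011 (SD, n = 3 each; exact permutation p = 0.8). For PSME2 to PSME1 it was 1.10 ± 0.020 and 1.07 ± 0.019 (SD, n = 3 each; exact permutation p = 0.3).

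**Figure D4:**
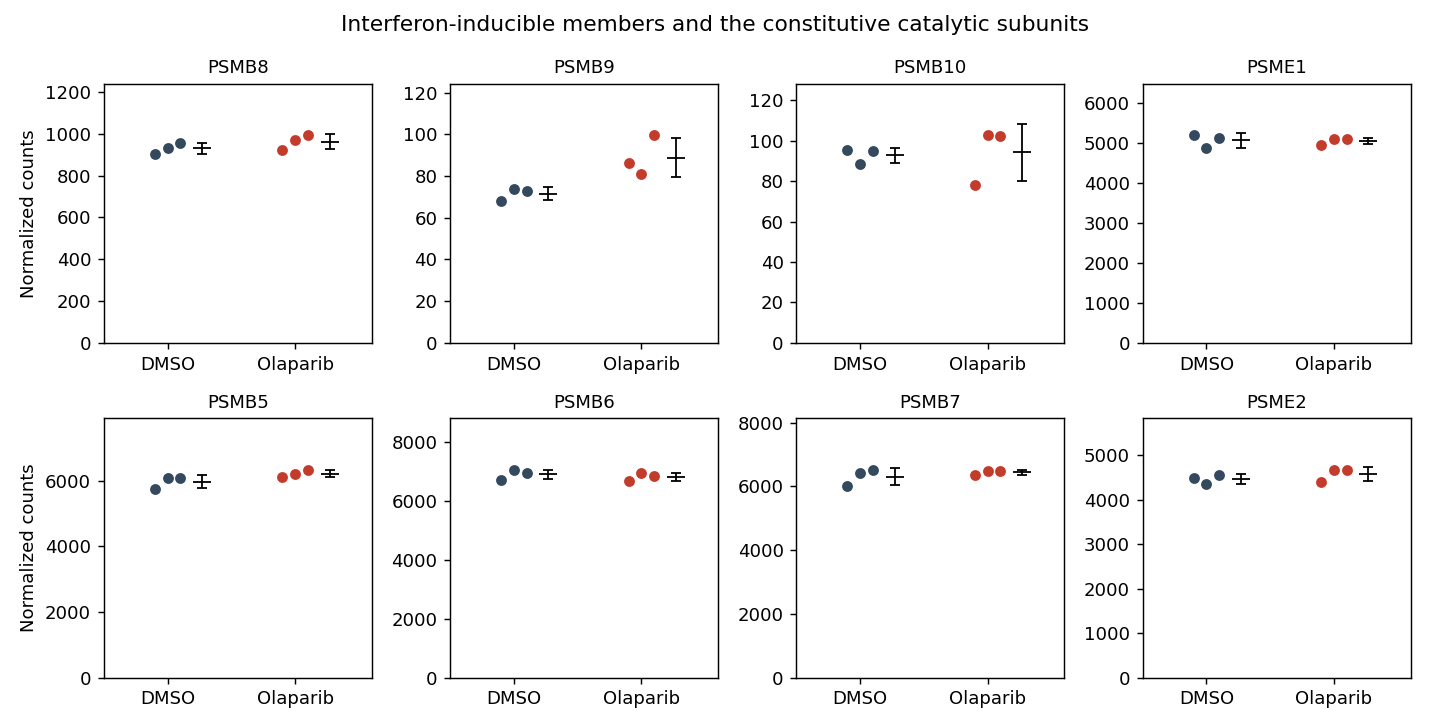
Normalized counts per sample for the 5 interferon-inducible members and for PSMB5, PSMB6 and PSMB7, the catalytic subunits that PSMB8, PSMB9 and PSMB10 replace; points are the 3 samples of each group and the bars give mean ± SD. In PSMB9 the Olaparib samples (81.0 to 99.4) lie above the DMSO samples (68.0 to 73.5), and in PSMB8, PSMB10, PSME1 and PSME2 the groups overlap.

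The alpha ring was the only role with every tested gene at a log2 fold change below 0, in 7 of 7 genes, from -0.0033 to -0.10. With 1 sample left out, 4 of the 7 (PSMA1, PSMA2, PSMA4 and PSMA5) crossed 0. None of the 7 had groups that were separate, and the one nearest to the threshold, PSMA6, had an adjusted p of 0.619 in edgeR's test. PSMA6 had 332, 302 and 379 normalized counts with Olaparib and 304, 392 and 390 with DMSO, which overlapped widely. PSMA7, the highest of the ring, had 19265, 20288 and 19841 normalized counts with Olaparib and 20643, 20006 and 20007 with DMSO. The summed level of the ring was 849 ± 14.2 RPKM with Olaparib and 864 ± 10.5 RPKM with DMSO (SD, n = 3 each). The difference of these sums was -1.75%, and PSMA7 alone made up 550 RPKM of the sum with Olaparib and 562 RPKM with DMSO. PSMA2, whose exons are all shared, had a log2 fold change of -0.05 ± 0.06 (SE), and it was 0.01 without the first Olaparib sample and 0.00023 without the third DMSO sample.

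The beta subunits of the constitutive core gave values on both sides of 0. PSMB1 and PSMB4, both structural, had log2 fold changes of 0.04 and 0.03, and PSMB2 one of -0.01. PSMB5, which carries the chymotrypsin-like site, had 6121, 6201 and 6314 normalized counts with Olaparib and 5738, 6088 and 6067 with DMSO. All Olaparib samples of PSMB5 were above the DMSO samples, at a log2 fold change of 0.06 ± 0.03 (SE) and an adjusted p of 0.409 in edgeR's test. PSMB6, the caspase-like subunit, and PSMB7, the trypsin-like subunit, had log2 fold changes of -0.02 and 0.03, with overlapping groups.

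The base ATPases, which unfold substrates, and the non-ATPase subunits held 3 of the 5 members with an unadjusted p under 0.05 in edgeR's test. These were 1 of the 6 ATPases (16.7%) and 2 of the 11 non-ATPase subunits (18.2%), near the 14.8% of all genes tested. PSMC3 had 10515, 10695 and 10711 normalized counts with Olaparib and 10007, 10151 and 9986 with DMSO. The fold change was 1.06, from 1.02 to 1.10, and the adjusted p in edgeR's test was 0.109, the lowest of all members. PSMD3 had 5433, 5407 and 5425 normalized counts with Olaparib and 5006, 5150 and 5172 with DMSO, at an adjusted p of 0.157 in edgeR's test. PSMD13, named after its values were seen, had 6450, 6489 and 6390 against 6111, 6000 and 6112 normalized counts, at an adjusted p of 0.134 in edgeR's test. In each of these 3 genes the groups were separate and the fold change was 1.06. The summed level of the 6 ATPases was 536 ± 6.35 RPKM with Olaparib and 523 ± 3.32 RPKM with DMSO, and that of the 11 non-ATPase subunits 1631 ± 10.1 and 1600 ± 8.02 RPKM (SD, n = 3 each).

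PSMD2 had the highest level of all the regulatory particle subunits in these sums. Its normalized counts were 64372, 65221 and 63577 with Olaparib and 61167, 62528 and 62786 with DMSO. The groups were separate, at a log2 fold change of 0.05 ± 0.03 (SE) and an adjusted p of 0.363 in edgeR's test. PSMC1, PSMD11 and PSMD12, an ATPase and a pair of lid subunits, had log2 fold changes of -0.02, -0.0079 and -0.03.

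Among the remaining activators, PSME4, which caps the core without ATP and is known from DNA repair and sperm development, had 5833, 5624 and 5618 normalized counts with Olaparib and 5495, 5529 and 5193 with DMSO. The groups did not overlap, and the log2 fold change was 0.07 ± 0.03 (SE), with an adjusted p of 0.262 in edgeR's test. PSME3, the nuclear activator, had 9843, 9584 and 9535 against 9296, 9229 and 9474 normalized counts, also separate, at an adjusted p of 0.460 in edgeR's test. PSMF1, an inhibitor of the core, had a log2 fold change of 0.05 ± 0.03 (SE).

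The chaperones, which assemble the particles and leave them, lay close to 0 as well. PSMD5 and PSMD10, chaperones of the regulatory particle, had log2 fold changes of 0.07 and 0.05, and PSMD9 one of -0.06. PSMD5 was separate upward and PSMD9 downward, and neither passed edgeR's test after adjustment. The core chaperones PSMG1, PSMG2, PSMG3 and PSMG4 had log2 fold changes of -0.02, -0.0081, 0.0013 and 0.03.

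The members were also grouped by the promoter motifs shown above, and differences between these groups were not tested. The 5 members with the interferon-stimulated core had a median log2 fold change of 0.03, from -0.0033 to 0.03. The 6 tested members with a gamma-activated site had a median of 0.05, from -0.05 to 0.09. The 12 tested members with an antioxidant response element had a median of -0.0035, from -0.06 to 0.31. None of these members passed edgeR's test after adjustment.

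Of the 35 partner genes reported here, 0 passed edgeR's test after adjustment, and DESeq2 and limma voom also gave 0. Before adjustment, p in edgeR's test lay under 0.05 for 3 genes upward and 2 downward. This was 14.3% of the 35, near the 14.8% of all genes tested. The list of neighbours and regulators of the inducible members, with 11 genes reported, had log2 fold changes from -0.09 to 0.23 and a median of 0.05. The gene of TAP1, a peptide transporter subunit, lies within the span of PSMB9 on the opposite strand. Exons of the opposite strand covered 21.5% of its canonical bases. TAP1 had 512, 634 and 616 normalized counts with Olaparib and 530, 551 and 551 with DMSO. Its adjusted p in edgeR's test was 0.424, and without the first Olaparib sample it was 0.0338. NLRC5, an activator of antigen presentation genes, and IRF1, an interferon regulatory factor, had log2 fold changes of 0.23 ± 0.14 and 0.05 ± 0.06 (SE), with adjusted p-values of 0.470 and 0.786 in edgeR's test.

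In the list of 16 proteasome genes outside the PSM symbols, such as the ubiquitin receptor ADRM1, the log2 fold changes ran from -0.08 to 0.08 with a median of 0.02. In the list of 8 genes of the NFE2L1 pathway, they ran from -0.10 to 0.14 with a median of -0.0072. NFE2L1 itself had 7936, 8215 and 7892 normalized counts with Olaparib and 7730, 8196 and 7976 with DMSO, and these ranges overlapped.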

How the data were processed

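Per the study's methods, the authors trimmed reads with Trimmomatic, aligned them with STAR to GRCh38, flagged duplicates using Picard, and counted reads per gene using featureCounts. Whether duplicates were removed, and the strand and overlap settings, are not given in the sources used here. The deposited values are whole-number counts per gene with no normalization.

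Genes whose counts summed to over 10 across all 6 samples were normalized by TMM. The 3 Olaparib samples were compared with the 3 DMSO samples by edgeR's quasi-likelihood test (edgeR 4.0.16 in R 4.3.3) and p-values were adjusted by Benjamini-Hochberg over all genes tested, after the test was tried on simulated data. Normalized counts were scaled to the mean effective library size. Levels used the canonical transcript length of GENCODE 44, which holds 81.9% of the listed identifiers. Replicates of a group differed beyond sampling noise (chi-square per degree of freedom 1.76 to 3.98), so all 6 samples were kept.

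Always named were the inducible members, PSMB5, PSMB6, PSMB7, PSME3 and PSME4, members at or under 10 counts, members past the threshold, and in each role those with the highest and lowest level and with the largest positive and largest negative fold change. From the partner lists, genes past the threshold and TAP1, NFE2L1, IRF1 and NLRC5 were named, and 1 listed gene is not reported here. The members and lists were chosen with earlier results of these data known. The alternatives were other normalizations and filters, DESeq2 (1.42.0), limma voom (limma 3.58.1), a replicate block, each sample left out and a fold threshold of 1.2. A planned comparison of protein sequences was not run.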

Additional observations from a re-analysis of the deposited data

How the results depend on the processing

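The count of members past an adjusted p of 0.05 was 0 under every normalization, filter and tool tried and with each sample left out. With the replicate block it was 3 of the 45 (PSMC3, PSMD13 and PSMD3), beside 1322 of the 21729 genes tested. Without the block 730 genes passed. The block also gave 1 reported partner gene (DDI2) in place of 0. Deviations of same-numbered samples correlated at -0.052, 0.0823 and -0.0465 over 16392 genes, and not every sample correlated best with its own number. A pairing by replicate number was thus not seen in these correlations, which cannot exclude a weak one. With a 1.2-fold threshold 262 genes passed. With each sample left out, the count over all genes ran from 398 to 870, and it was 398 without the second DMSO sample, 401 without the third and 439 without the third Olaparib sample. Without the first Olaparib sample 1 reported partner gene passed (TAP1), and leaving out each other sample gave 0. The median log2 fold change of the 40 other members ran from 0.0028 to 0.0257 with each sample left out, the highest without the first Olaparib sample, beside 0.0103 with all samples. Of 34 named genes tested, 9 changed sign in at least 1 alternative, each with a log2 fold change no further than 0.048 from 0 with all samples. With each sample left out, the log2 fold change ran from -0.0862 to 0.0118 for PSMA2, from -0.0414 to 0.146 for PSMB10, from -0.0012 to 0.0532 for PSMB7, from -0.0438 to 0.0039 for PSMC1, from -0.0353 to 0.0367 for PSMD11, from -0.0320 to 0.0160 for PSME1, from -0.0224 to 0.0099 for PSMG2, from -0.0348 to 0.0402 for PSMG3 and from -0.0111 to 0.0292 for NFE2L1. Of all 45 members, 14 changed sign with a sample left out. With upper quartile normalization it was -0.0077 for PSMG3 and -0.00075 for NFE2L1. Adding read-through counts, chosen after seeing the data, gave -0.0494 for PSMB10. The log2 difference of the ratio ran from -0.026 to 0.0078 for PSMB8 to PSMB5 and from -0.0809 to 0.103 for PSMB10 to PSMB7 with each sample left out. The cause of these changes was not tested. Depth limits PSMB9 and PSMB10 most, with 481 and 561 counts in total.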
